A study of Mus musculus with 8 samples.

Results

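Sebum is made by sebocytes, which fill with neutral lipid, burst and release it into the hair canal. 10 genes of that lipid synthesis, or of its hormonal control, were followed here in mouse skin: Fasn, Scd1, Scd3, Elovl3, Elovl4, Dgat2, Awat2, Far2, Soat1 and Mc5r. They are 10 of the 20128 genes that could be named on the array, taken by name through the RefSeq accessions of their probes (13 probes). The level of a gene is given by its probe with the highest mean over all samples, and its other probes are given beside it. 9 of the 10 had a probe bright enough to be tested, against 14774 of all named genes.

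RNA came from skin sections of C57BL/6N mice, 1 Agilent single-colour array a sample, in 3 groups. These were hair loss skin of Cchcr1 mutants (2 samples), normal skin of Cchcr1 mutants (4 samples) and normal skin of wild type mice (2 samples). Cchcr1 encodes a coiled-coil protein of the centrosome and of cytoplasmic bodies, and the labels describe neither the mutant allele nor the age, sex or treatment of the mice. Titles begin with Mutant097 (1 hair loss and 2 normal skin samples), Mutant113 (likewise) or Wild001 (both wild type samples), and each normal skin pair is marked A and B, letters the labels do not explain. The labels do not say whether a title start marks an animal, so p-values measure the spread between these samples, which may be technical. Because wild type skin has 1 title start, genotype and title start cannot be told apart.

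Levels are log2 units relative to the 75th percentile of the same array, so 0 stands for that percentile. The 75th percentile itself was an intensity of 83.1 to 211, lowest in the wild type sample B and highest in the Mutant113 hair loss sample. On each array 25424 to 30205 probes were marked well above background. A gene was called when the limma p, adjusted over the 30417 probes tested, was under 0.05. Cchcr1 itself read -0.035 to 0.32 in mutant normal, -0.0084 to 0.49 in hair loss and -0.067 to -0.031 in wild type skin (limma adjusted p = 0.688 for mutant normal skin against wild type). Xist was well above background in the 3 Mutant113 samples and in no other, while Ddx3y, a Y-linked gene, was well above background in the 3 Mutant097 and the 2 Wild001 samples and in no Mutant113 sample. Mutant normal and hair loss skin thus each held samples of both patterns, and wild type skin only the Ddx3y pattern. The part of this in the differences from wild type skin was not tested. Tissue markers differed as well: hair shaft and inner root sheath genes were far lower in wild type skin, as described below. Epidermal markers were present throughout, with 11 of 11 tested genes (loricrin and keratins among them) above background on every array, as were 9 of the 10 sebocyte genes.

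The pathway runs from new fatty acids to the esters that make up sebum. Fatty acid synthase makes saturated acyl chains, elongases lengthen them and stearoyl-CoA desaturases put in a double bond. The products are then joined to glycerol, fatty alcohols or cholesterol, giving triglycerides, wax esters and cholesteryl esters. In mice this mixture coats the fur and repels water, and loss of several of these enzymes is known to alter sebum or hair. Several of the genes, Fasn, Scd1 and Dgat2 among them, are also active in adipocytes, which lie under the skin.

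Promoter windows of 250 bases before the start site were read for 6 of the 10 genes (RefSeq, GRCm38.p6). Those of Scd3, the gene called below, and of Fasn, at the head of the pathway, are shown 5′ to 3′ on the strand of the gene, with matches to the CCAAT box (CCAAT or its reverse ATTGG) in capitals. The Scd3 window is chr19:44203038-44203287 on the plus strand and the Fasn window is chr11:120824548-120824797 on the minus strand.
Scd3: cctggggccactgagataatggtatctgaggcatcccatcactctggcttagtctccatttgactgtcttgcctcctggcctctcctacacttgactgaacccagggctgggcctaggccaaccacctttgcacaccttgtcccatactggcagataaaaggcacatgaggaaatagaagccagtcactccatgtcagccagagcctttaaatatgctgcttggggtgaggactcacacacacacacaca
Fasn: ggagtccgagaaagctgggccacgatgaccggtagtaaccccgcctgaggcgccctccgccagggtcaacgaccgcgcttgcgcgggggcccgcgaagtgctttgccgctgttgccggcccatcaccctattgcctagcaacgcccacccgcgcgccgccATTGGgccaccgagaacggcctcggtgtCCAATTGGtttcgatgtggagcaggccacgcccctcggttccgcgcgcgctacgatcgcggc
The Fasn window holds 3 matches, of which the last pair overlap in 1 palindromic stretch, and the Scd3 window holds 0. A CCAAT match occurs in 33.8% of the 32851 windows of this length in the table. The TATA box (TATAAA) and the nuclear receptor half-site (AGGTCA), which occur in 12.4% and 14.0% of all windows, were searched on both strands too, and neither window holds a match. A missing match says only that these letters are not in the window.

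Scd3 was the 1 gene of the 10 whose level was called, and it was lower in hair loss skin than in wild type skin. It encodes a stearoyl-CoA desaturase, and in mouse skin its transcript is known mainly from sebaceous glands. The levels were 4.59 and 4.42 in wild type skin. Normal skin of Mutant097 gave 3.80 and 4.11, and that of Mutant113 3.34 and 3.84. In hair loss skin they were 2.79 in Mutant097 and 2.5 in Mutant113. The 3 groups therefore did not overlap, in the order wild type, mutant normal, hair loss. That order without overlap was seen for 1.36% of all probes tested.

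Wild type skin had a mean Scd3 level of 4.50 ± 0.12 (SD, n = 2). The mean of mutant normal skin was 3.77 ± 0.32 (SD, n = 4), and that of hair loss skin was 2.65 ± 0.21 (SD, n = 2). Hair loss skin was 1.86 log2 units lower than wild type, that is 3.62-fold lower (difference -1.86, SE 0.27, 95% interval -2.49 to -1.22, limma adjusted p = 0.0283). In that comparison 1.42% of all probes were called, 0.993% as higher and 0.427% as lower. The neighbouring steps were not called: hair loss minus mutant normal skin was -1.13 (SE 0.24, 95% interval -1.67 to -0.58, limma adjusted p = 0.710), and mutant normal skin minus wild type was -0.73 (SE 0.24, 95% interval -1.28 to -0.18, limma adjusted p = 0.196). In these comparisons 0.0% and 0.694% of all probes were called (0.575% higher and 0.118% lower in the second). Within Mutant097 the hair loss sample lay 1.16 below the mean of its normal skin (difference -1.16), and within Mutant113 the difference was -1.09. The test of the difference between those effects gave 0.07 (limma adjusted p = 0.973). With the slide row as a block, in which hair loss is set against Mutant097 and wild type against Mutant113 normal skin, hair loss minus wild type was -2.22 (limma adjusted p = 0.022), hair loss minus mutant normal skin -1.31 and mutant normal skin minus wild type -0.91. In bulk skin, fewer cells of a type and less RNA per cell cannot be told apart.

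The Scd3 call is not firm. Without either hair loss sample the limma adjusted p was 0.132 and 0.061, without either wild type sample 0.154 and 0.069, without the Mutant113 normal skin sample A 0.0502, and with 1 mean per title start and group 0.218. The difference stayed between -2.0 and -1.71 when single samples were left out.

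**Figure D1:**
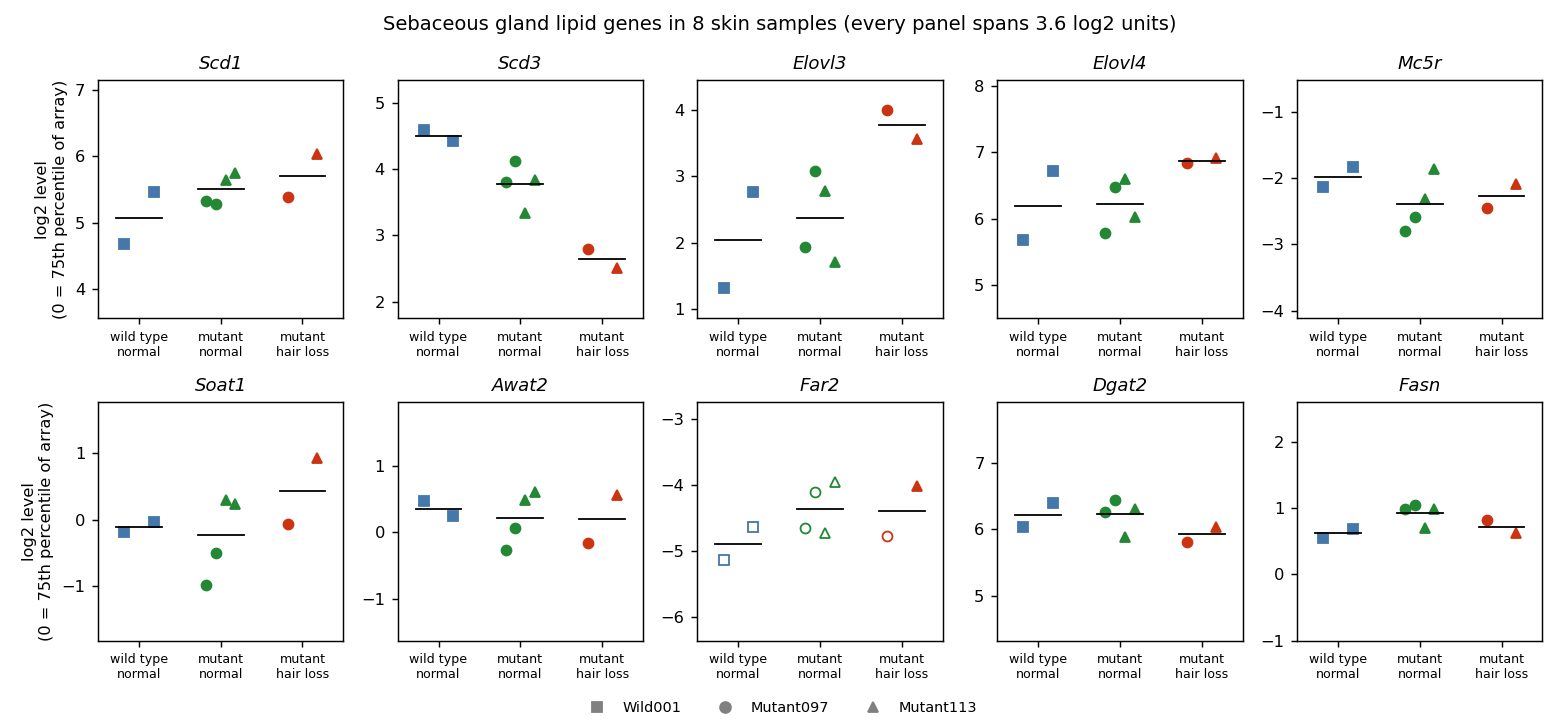
Level of each of the 10 genes in each of the 8 samples (y axis, log2 relative to the array's 75th percentile; every panel spans the same range), by group, with the mean as a bar. Marker shape gives the title start and an open marker a signal not well above background. Scd3 steps down from 4.50 in wild type to 2.65 in hair loss skin, Elovl3 and Elovl4 lie highest in hair loss skin, and among the mutant samples Scd1, Mc5r, Soat1 and Awat2 lie higher in Mutant113 than in Mutant097.

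The array holds 3 Scd3 probes, and they did not give 1 answer. The second probe read 4.01 and 3.65 in wild type skin, 2.21, 3.02, 2.72 and 3.17 in normal skin of the mutants and 1.91 and 2.04 in hair loss skin, again 3 groups without overlap. Its hair loss minus wild type difference was -1.85 (SE 0.33, limma adjusted p = 0.0453), which was also called. The third and dimmest probe read 0.21 and 0.77, then -0.74, -0.63, 0.02 and 0.07, and then -1.04 and 0.03 in the same order. On it the groups of mutants overlapped, and hair loss minus wild type was -0.99 (SE 0.44, 95% interval -2.01 to 0.02, limma adjusted p = 0.210), not called. Within Mutant097 and Mutant113, hair loss minus normal skin was -0.36 and -0.01 on this probe and -0.71 and -0.90 on the second. Scd3 belongs to a row of near relatives on chromosome 19, where the protein-coding order is Scd3, Scd2, Scd4, Scd1. Probe sequences were not used here, so whether a probe also binds a relative was not tested.

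**Figure D2:**
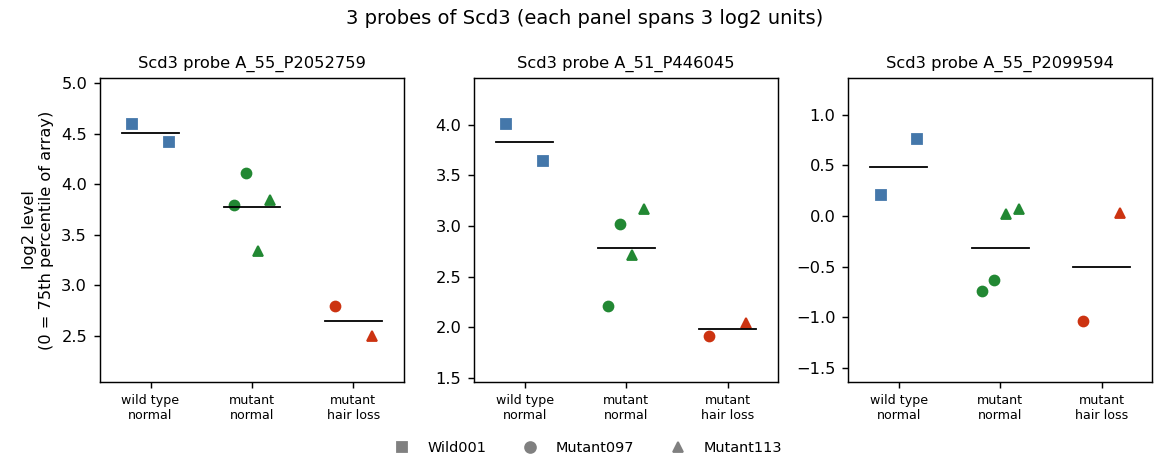
Level of the 3 Scd3 probes in each sample (y axis, log2 relative to the array's 75th percentile), by group with the mean as a bar and the title start as marker shape. The first and second probe fall from wild type to hair loss skin without overlap between groups, and on the third the hair loss value of -1.04 lies below mutant normal skin and that of 0.03 within it.

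Scd1, the desaturase of sebocytes and of many other lipid-making cells, showed no such order. Its levels were 4.68 and 5.46 in wild type skin, 5.32 and 5.29 in Mutant097 and 5.65 and 5.75 in Mutant113 normal skin, and 5.38 and 6.03 in hair loss skin. The groups overlapped, and hair loss minus wild type was 0.64 (SE 0.34, 95% interval -0.15 to 1.42, limma adjusted p = 0.282). That interval reaches from slightly lower to 2.68-fold higher. Of the other genes of the cluster, Scd4 was 1.12 higher in hair loss skin than in wild type (limma adjusted p = 0.063) and Scd2 differed by -0.31 (limma adjusted p = 0.592), and neither was called. Scd4 was not well above background in the wild type sample B.

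Elovl3, an elongase of saturated and monounsaturated chains that is abundant in sebaceous glands, had its highest levels in hair loss skin, but it was not called. Hair loss skin gave 3.99 and 3.56. Normal skin gave 1.93, 3.08, 2.77 and 1.70 in the mutants and 1.32 and 2.77 in the wild type. Both hair loss samples lay above all 6 normal skin samples, and mutant normal skin overlapped wild type. Hair loss minus mutant normal skin was 1.40 (SE 0.51, 95% interval 0.22 to 2.59, or 2.65-fold, limma adjusted p = 0.928), and hair loss minus wild type was 1.73 (SE 0.59, 95% interval 0.37 to 3.10, or 3.33-fold, limma adjusted p = 0.132). The spread within normal skin was wide: A minus B was 1.15 in Mutant097, -1.07 in Mutant113 and 1.45 in Wild001. Those gaps between samples of 1 title start and 1 skin state are close in size to the difference between hair loss and mutant normal skin.

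Elovl4, which makes the very long acyl chains of skin barrier lipids and sebum, followed the same samples. It read 6.84 and 6.92 in hair loss skin. Normal skin read 5.78, 6.47, 6.60 and 6.03 in the mutants and 5.68 and 6.72 in the wild type. Both hair loss values were again above all others, the lower one only just above the wild type sample at 6.72. Hair loss minus mutant normal skin was 0.65 (SE 0.34, limma adjusted p = 0.990) and hair loss minus wild type 0.68 (SE 0.39, limma adjusted p = 0.317). On its second probe the hair loss levels of 4.28 and 4.27 fell inside the range of normal skin (3.66 to 4.30), with differences of 0.25 and 0.10. A minus B ran with Elovl3, at 0.69, -0.57 and 1.04 in Mutant097, Mutant113 and Wild001.

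Counted over the 9 tested genes, 3 did not overlap between hair loss and mutant normal skin (Elovl3 and Elovl4 higher, Scd3 lower), where 12.4% of all probes did not (5.73% higher, 6.68% lower). The same 3 did not overlap between hair loss and wild type skin, where 53.3% of all probes did not (24.8% higher, 28.5% lower). Between mutant normal and wild type skin it was 2 of 9 (Fasn higher, Scd3 lower), where 28.3% of all probes did not (13.6% higher, 14.8% lower). The median difference of the 9 was 0.12, 0.01 and 0.10 in hair loss against mutant normal, mutant normal against wild type and hair loss against wild type, beside -0.01, -0.04 and -0.06 over all probes. In each of the 3 comparisons 5 of the 9 differences were above 0.

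**Figure D3:**
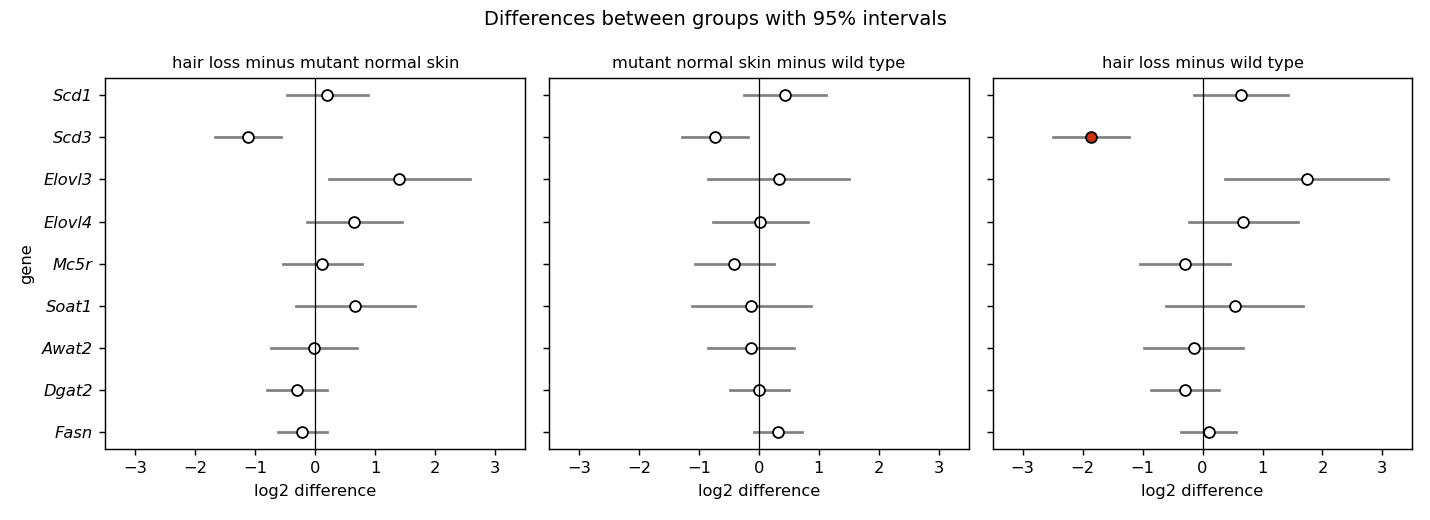
Difference in log2 level for the 9 tested genes (points) with 95% intervals (bars) in the 3 comparisons, on 1 shared x axis. The filled point is the 1 called difference, Scd3 at -1.86 between hair loss and wild type skin; the intervals of Elovl3 lie above 0 in both comparisons with hair loss skin, without a call.

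Fasn, which builds the saturated chain that the other enzymes work on, varied little. It read 0.55 and 0.69 in wild type skin, 0.98, 1.05, 0.70 and 0.99 in normal skin of the mutants and 0.81 and 0.62 in hair loss skin. All 4 mutant normal samples were above both wild type samples, the nearest at 0.70 against 0.69, and the difference was 0.31 (SE 0.17, 95% interval -0.09 to 0.71, limma adjusted p = 0.397). Hair loss minus wild type was 0.10 (95% interval -0.36 to 0.56), so a change beyond 1.48-fold upward lies outside the interval.

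Dgat2, which adds the last acyl chain of triglycerides, read 6.04 and 6.40 in wild type skin, 6.27, 6.44, 5.89 and 6.31 in normal skin of the mutants and 5.81 and 6.04 in hair loss skin. The groups overlapped. Hair loss minus mutant normal skin was -0.30 (SE 0.21, 95% interval -0.80 to 0.19, limma adjusted p = 0.999), and mutant normal skin minus wild type was 0.01 (95% interval -0.49 to 0.50).

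Awat2 and Far2 act in the same branch, since Far2 makes fatty alcohols and Awat2 joins them to acyl chains as wax esters. Awat2 read 0.47 and 0.24 in wild type skin, -0.27 and 0.07 in Mutant097 and 0.49 and 0.61 in Mutant113 normal skin, and -0.16 and 0.57 in hair loss skin. In both skin states the Mutant113 samples lay above the Mutant097 samples, and hair loss minus wild type was -0.15 (SE 0.36, 95% interval -0.98 to 0.68, limma adjusted p = 0.819). Far2 was well above background in 1 of 8 samples, the Mutant113 hair loss sample, and was not tested. Its signals lay between -5.14 and -3.96, and the highest of them, in a Mutant113 normal sample, was itself not well above background.

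Soat1, which esterifies cholesterol, read -0.18 and -0.03 in wild type skin, -0.98 and -0.50 in Mutant097 and 0.30 and 0.24 in Mutant113 normal skin, and -0.07 and 0.94 in hair loss skin. The wild type values lay between those of the mutants' normal skin. Hair loss minus mutant normal skin was 0.67 (SE 0.43, 95% interval -0.32 to 1.66, limma adjusted p = 0.999). Taken within a title start it was 0.67 in Mutant097 and 0.66 in Mutant113. Each value sets a single hair loss sample against the mean normal skin of that title start, where A minus B was 0.48 and -0.06. The labels do not say that a title start pairs samples.

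Mc5r, the melanocortin receptor through which sebaceous secretion is stimulated, was dim but well above background on all 8 arrays. It read -2.13 and -1.83 in wild type skin, -2.81, -2.59, -2.31 and -1.87 in normal skin of the mutants and -2.46 and -2.09 in hair loss skin. The groups overlapped, and mutant normal skin minus wild type was -0.41 (SE 0.28, 95% interval -1.06 to 0.24, limma adjusted p = 0.490).

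The mutant samples were also compared by title start. Scd1, Mc5r, Soat1 and Awat2 were higher in both Mutant113 normal samples than in both Mutant097 normal samples, which is 4 of 9 tested genes, and 0 of 9 were lower without overlap. Of all probes 56.0% did not overlap there, 24.1% higher and 31.9% lower. In normal skin, Mutant113 minus Mutant097 was 1.02 for Soat1 (SE 0.22, limma adjusted p = 0.148), 0.65 for Awat2 (SE 0.20, limma adjusted p = 0.240), 0.61 for Mc5r (SE 0.23, limma adjusted p = 0.301) and 0.40 for Scd1 (SE 0.28, limma adjusted p = 0.546). 0 of the 9 were called, and 0.266% of all probes were. Normal skin of Mutant097 lay in the first row of the slide and that of Mutant113 in the second. Both hair loss samples lay in the first row, and between them the Mutant113 sample was higher by 1.0 for Soat1, 0.73 for Awat2, 0.37 for Mc5r and 0.65 for Scd1. The same 4 genes thus separated all 3 Mutant113 from all 3 Mutant097 samples, and 0 did so in the other direction. Of all probes 25.5% did so, 9.77% as higher and 15.7% as lower. Title start moved with Xist and Ddx3y as given above, and the part of either in these differences was not tested.

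Other genes of the pathway were described from 4 lists. By limma 0 of their genes were called in the 3 comparisons. Under single alternatives up to 1 fatty acid gene and 1 sebaceous regulator were called between hair loss and wild type skin. Up to 1 fatty acid gene was called between mutant normal and wild type skin. Hair loss minus wild type ran from -0.89 to 2.46 in the fatty acid list and -1.29 to 0.77 in the glyceride list. It ran from -1.45 to 1.14 in the cholesterol list and -0.54 to 4.21 among the sebaceous regulators. The fatty acid gene at 2.46 was not well above background in either wild type sample. At an unadjusted p under 0.05 there were 5 of 86 in hair loss against mutant normal skin, 10 in mutant normal skin against wild type and 18 in hair loss against wild type, beside 2, 1 and 2 of the 9 members (Scd3 in all 3, Elovl3 in both that hold hair loss skin). Of all probes 5.2%, 17.2% and 24.8% had such a p in the same order. Of 25 tested genes of fatty acid synthesis, desaturation and elongation, 17 differences were above 0 between hair loss and mutant normal skin (median 0.12), 9 between mutant normal and wild type skin (median -0.14) and 10 between hair loss and wild type skin (median -0.17). Elovl1 and Hacd3, an elongase and a dehydratase of the elongation cycle and the brightest of the list, differed by -0.18 and 0.48 between hair loss and wild type skin. Of 21 genes for glycerides, wax esters and lipid droplets, 14, 10 and 12 differences were above 0 in the same order (medians 0.27, 0.00 and 0.20). Fabp5, a fatty acid binding protein of keratinocytes, differed by 0.69 between hair loss and wild type skin (limma adjusted p = 0.254), and Mgll, a monoglyceride lipase, by 0.47 (limma adjusted p = 0.376).

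Of 23 genes of cholesterol and squalene synthesis, 19, 14 and 16 differences were above 0 (medians 0.20, 0.06 and 0.13). Msmo1, a sterol oxidase, differed by 0.17 between hair loss and wild type skin (limma adjusted p = 0.853). Of 17 sebaceous regulators and markers, 15, 11 and 12 differences were above 0 (medians 0.21, 0.17 and 0.49). Krt79, a keratin of the sebaceous duct, differed by 0.99 (limma adjusted p = 0.107) and Fabp4, a fatty acid binding protein of sebocytes and adipocytes, by 0.90 (limma adjusted p = 0.114) between hair loss and wild type skin. Pparg, the transcription factor of sebocyte and adipocyte maturation, differed by 0.21, and Srebf1, a regulator of fatty acid synthesis genes, by -0.46 (limma adjusted p = 0.717 and 0.232).

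**Figure D4:**
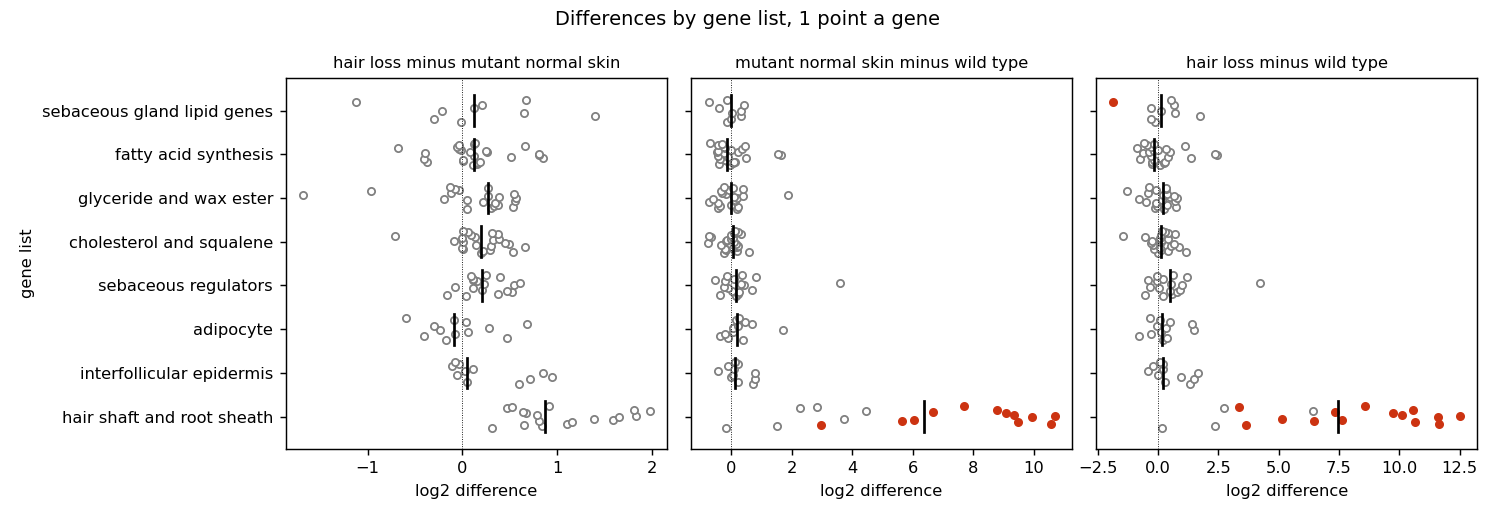
Differences in log2 level, 1 point a gene and the list's median as a bar, for the 9 tested sebaceous gland lipid genes and 7 gene lists in the 3 comparisons (x axes differ in range). Filled points are called; the hair shaft and root sheath list stands far to the right in both comparisons with wild type skin, and among the lipid genes Scd3 is the 1 filled point.

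Markers of other skin compartments differed between the groups too. Of 18 tested hair shaft and inner root sheath genes, 12 were higher in mutant normal skin than in wild type (median difference 6.36) and 14 in hair loss skin (median 7.48), among them Krt35, Krt27, Krt73, Tchh and Krt71. Of all probes 0.575% and 0.993% were called higher in these comparisons, and 17 and 18 of the 18 differences were above 0. With 1 mean per title start, or without the wild type sample A, 0 of the 18 were called in either comparison. Without the wild type sample B it was 3 in each, and without the Mutant097 hair loss sample 1 in hair loss against wild type skin. The summed level of a list is the log2 of the sum of its genes' levels before log2, so the brightest genes weigh most. For these 18 it ran from 10.7 to 12 in hair loss and from 9.19 to 11.4 in mutant normal skin. In wild type skin, where 11 of the 18 were above background on both arrays, it ran from 3.57 to 4.69. Between hair loss and mutant normal skin 0 were called (median 0.88). That median pools unlike title starts. Within Mutant097 the median was 2.13, with 18 of 18 differences above 0. Within Mutant113 it was -0.27, with 1 of 18 above 0. Skeletal muscle markers summed to 10.9 and 11 in wild type skin. In Mutant097 the sum was 9.96 in hair loss skin and 10.3 and 9.63 in normal skin, and in Mutant113 it was 8.44 in hair loss skin and 10.9 and 11 in normal skin. Hair loss minus normal skin thus had a median of -0.05 over the 12 muscle genes in Mutant097 and -2.58 in Mutant113. For Scd3 these differences were -1.16 and -1.09 on the first probe, -0.71 and -0.90 on the second, and -0.36 and -0.01 on the third. Each of these differences rests on a single hair loss sample. Of the 12, Mylpf was called between hair loss and wild type skin (-2.60, limma adjusted p = 0.047), a call that held in 7 of 16 alternatives (adjusted p 0.021 to 0.232) and ended without either hair loss sample, either wild type sample or either mutant normal sample B. Of 12 adipocyte markers 0 were called between the 3 groups. Their summed level was 9.08 to 9.19 in wild type, 8.55 to 9.26 in mutant normal and 8.59 to 9.05 in hair loss skin. That of the 17 sebaceous regulators was 8.63 to 9.0 in wild type, 8.93 to 9.40 in mutant normal and 9.60 to 9.79 in hair loss skin. The members' own summed level was 7.43 to 8.05 in wild type, 7.60 to 7.93 in mutant normal and 7.90 to 8.10 in hair loss skin. The part of hair shaft, muscle or adipocyte RNA in the Scd3 difference was not tested.

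In the remaining compartments limma called 0 genes between the 3 groups, though up to 5 of 8 hyperproliferative, 3 of 5 fibroblast and 1 of 11 interfollicular markers were called between hair loss and wild type skin under single alternatives, and up to 2 fibroblast markers between mutant normal and wild type skin. Over all samples, 4 of 11 interfollicular, 8 of 8 hyperproliferative, 2 of 9 immune and 2 of 5 fibroblast markers had an unadjusted p under 0.05 between hair loss and wild type skin, beside 24.8% of all probes. Interfollicular epidermis markers (11 tested, Lor and Krt5 the brightest) summed to 10.7 to 10.9 in wild type, 10.9 to 11.2 in mutant normal and 11 to 11.2 in hair loss skin. Hyperproliferative epidermis markers (8 tested, Krt17 and Krt16 the brightest) summed to 6.75 to 7.08, 7.49 to 8.64 and 8.59 to 9.06. Immune markers (9 tested, Cd74 and H2-Aa the brightest) had a median difference of -0.49 and fibroblast markers (5 tested, Dcn and Col3a1 the brightest) of -0.97 between hair loss and wild type skin.

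The genes whose levels were most like those of each member over the 8 samples were taken from 14274 genes by Pearson r, as a description. All of these correlations share the same 8 arrays, their scaling and their groups, and the highest of so many values is high by selection. Nearest to Scd3 were Mn1 (r = 0.992), Tesk1 (0.988) and Myoc (0.981). Of these, Mn1 at -1.62 and Myoc at -2.31 were also called as lower in hair loss than in wild type skin (limma adjusted p = 0.0241 and 0.0189). Both were picked for likeness to Scd3 over the same samples, so these calls are not separate evidence. Nearest to Elovl3 were Msn (0.981), Vmp1 (0.975) and Fabp5 (0.970). Elovl4 was nearest to Degs2 (0.984), Egln3 (0.976) and Fa2h (0.976), and both Degs2 and Fa2h hydroxylate lipids of the skin barrier.

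Scd1 was nearest to Zfp772 (r = 0.978), Rab27b (0.970) and Rnf227 (0.966), and Fasn to Sf1 (0.982), Vamp2 (0.973) and Dusp1 (0.970). For Dgat2 the nearest were Cgn (0.988), Rasgrp1 (0.982) and Gdpd2 (0.974). Soat1 was nearest to Tank (0.987), Dsg1c (0.971) and Gpr65 (0.966). Awat2 was nearest to Rnpc3 (0.965), Htra4 (0.965) and Pkn2 (0.962), and Mc5r to Itpkb (0.976), Doc2b (0.966) and Myadm (0.956). No gene stood on the lists of more than 1 member.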

How the data were processed

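Feature Extraction 11.5.1.1 gave a Cy3 intensity per spot, already corrected for background and spatial trends per the file headers, and the background flag (held as another number, 0 or 1) was also deposited by the authors. The table of log2 values the authors deposited lay within 0.01 of 1 shift per array of these intensities for all 55603 probes kept. Control spots and outlier spots (118 to 210 an array) were left out, 0 spots were saturated, and 78 of 55681 probes with no spot left were dropped. Spots of a probe were averaged as log2 intensity minus the array's 75th percentile. Probes well above background on at least 2 of 8 arrays (30417) were tested.

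limma 3.58.1 in R 4.3.3 fitted 1 model of the 3 groups (5 residual and 2.71 prior degrees of freedom) and 1 of group by title start (3 and 2.51), with two-sided p-values adjusted by Benjamini-Hochberg and 95% intervals from the moderated statistic. The method was tested on simulated data. Symbols came from a RefSeq table. All 8 arrays were on 1 slide, and no other batch was found. Members and lists were chosen with earlier results of these data known. Genes were named by rule: every member, from each list the called genes (at most 5 by adjusted p, or the 2 brightest where 0 were called) and the 3 genes most like each member. Scd2, Scd4, Pparg and Srebf1 were named besides, after their values were seen. A gene that the rule names is not reported here. The alternatives were other background correction (normexp, on the median signal because the files hold no mean signal), quantile scaling, other filters, the slide row and the title start as blocks, single samples left out, means per title start and other probes. The number of arrays limits the precision.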

Additional observations from a re-analysis of the deposited data

How the results depend on the processing

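Over 17 alternatives the Scd3 difference between hair loss and wild type skin ran from -2.22 to -0.99 and its adjusted p from 0.00946 to 0.218, under 0.05 in 9. Its call, the 1 among the members, became 0 with 1 mean per title start, with no filter and with the lowest-mean probe, and was 0 to 1 with single samples left out (0 without either hair loss sample, either wild type sample or the fourth mutant normal sample). In the other 2 comparisons 0 members were called under every alternative run.

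Probes called between mutant normal and wild type skin (211) numbered 0 with 1 mean per title start, 128 with no filter, 856 with the slide row as a block, 64 when above background on all 8 arrays and 0 to 191 with single samples left out. Those between hair loss and wild type skin (432) numbered 0, 183 and 1332 under the first 3 of these, 706 with only the 2 groups compared and 0 to 708. For hair loss against mutant normal skin (0) the count was 0 to 11 with single samples left out (1582 at an unadjusted p under 0.05 over all samples). Between title starts in normal skin (81) it was 19 with no filter, 465 with normexp, 146 with quantile scaling, 30 when above background on all 8 arrays and 6 to 99. The difference of hair loss effects between title starts (0) gave 287, 3 and 4 under normexp, quantile scaling and above background on all 8 arrays, and 0 to 25. Under normexp the median of all probes between hair loss and wild type was -0.12. The title start as a replicate block left 0 probes called for hair loss against mutant normal skin and Scd3 at -1.13. The labels do not say that it pairs samples. Deviations of same-start samples correlated at r = 0.130, the same value for both of the 2 starts and so 1 estimate.

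Small uncalled member differences changed sign, and the cause was not tested. With the slide row as a block, Awat2 became 0.31 (hair loss against mutant normal), 0.19 (mutant normal against wild type) and 0.50 (hair loss against wild type), Soat1 0.38 and Dgat2 -0.12 (mutant normal against wild type), and Mc5r 0.32 and Fasn -0.067 (hair loss against wild type). Awat2 became 0.00098 under normexp, Elovl4 -0.071 and Dgat2 -0.064 under quantile scaling, and Elovl4 -0.16 on its other probe. With single samples left out, hair loss minus mutant normal ran from -0.12 to 0.53 for Scd1, -0.067 to 0.30 for Mc5r and -0.38 to 0.35 for Awat2; mutant normal minus wild type from -0.40 to 1.05 for Elovl3, -0.49 to 0.55 for Elovl4, -0.31 to 0.12 for Soat1, -0.26 to 0.031 for Awat2 and -0.17 to 0.19 for Dgat2; and hair loss minus wild type from -0.51 to 0.21 for Awat2.

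Among list genes, the slide row as a block turned Msmo1 to -0.12 and -0.70 (against mutant normal and wild type), Cfd to 0.0092, Car3 to 0.20, 0.23 and 0.43, Col3a1 to -0.78 and Lor to -0.14. Quantile scaling turned Elovl1 to -0.024, Lor to 0.10 and Mgll to -0.014, and normexp turned H2-Aa to 0.0053. With single samples left out, hair loss minus mutant normal ran from -0.076 to 0.075 for Elovl1, -0.25 to 0.10 for Cfd, -0.18 to 0.11 for Lor, -0.11 to 0.33 for Krt5, -1.77 to 0.13 for Myh4, -0.41 to 0.30 for Cd74, -0.56 to 0.52 for H2-Aa and -0.30 to 0.48 for Col3a1. Mutant normal minus wild type ran from -0.52 to 0.14 for Elovl1, -0.14 to 0.57 for Hacd3, -0.25 to 0.50 for Fabp5, -0.32 to 0.50 for Mgll and -0.62 to 0.32 for Msmo1. Hair loss minus wild type ran from -0.51 to 0.15 for Elovl1, -0.30 to 0.64 for Msmo1 and -0.015 to 0.42 for Krt5.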
